A study of Homo sapiens with 12 samples.

Results

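The immediate early genes described here are 10 genes of the EGR, IER and ZFP36 families with the phosphatase gene DUSP1, followed in 2 human ovarian cancer cell lines exposed to the covalent kinase inhibitor THZ1. They are EGR1, EGR2, EGR3, IER2, IER3, IER5, ZFP36, ZFP36L1, ZFP36L2 and DUSP1, and they make up 10 of the 23621 genes listed for each line. The set was picked because EGR1, IER2 and ZFP36 lay in opposite directions in the 2 lines at 250 nM THZ1. Values at 250 nM against DMSO therefore stand as a description of the members, with no test. Of the 10 genes, 8 had an FPKM (a fragment count scaled to transcript length and library size) above 1 in at least 1 of 12 libraries and were fitted with 14251 genes in all, whereas EGR2 and EGR3 stayed below 1 FPKM in every library.

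Immediate early genes are transcribed within minutes of a growth factor, cytokine or stress signal, without a need for new protein, and their mRNAs are short-lived. ERK kinases switch many of them on through serum response factor and its ternary complex partners bound at CArG boxes, and through CREB bound at cyclic AMP response elements. Their products close the loop in several ways. EGR1, EGR2 and EGR3 are zinc finger transcription factors, ZFP36 and its relatives ZFP36L1 and ZFP36L2 bind AU-rich elements and bring the CCR4-NOT deadenylase to the mRNA, and DUSP1 removes phosphate from MAP kinases. THZ1 binds CDK7, CDK12 and CDK13, kinases that phosphorylate RNA polymerase II.

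KURAMOCHI (Ku) cells were grown in RPMI and COV362 (Cov) cells in DMEM. All libraries of both lines are labelled as untransduced controls. Each line was exposed for 6 hr to DMSO, the vehicle, or to THZ1 at 50 nM or 250 nM, with 2 replicates per condition that the labels call biological duplicates, so that p-values measure only the spread between these samples. Total RNA was taken in proportion to cell number and mixed with ERCC spike-in RNAs, synthetic transcripts of known amount, before libraries of polyA RNA were made, and the deposited FPKM were normalized to them. Each line is 1 established line, and the study holds no second line of either kind. The tables of the 2 lines were normalized separately, so levels set side by side across lines were not tested against each other. An FPKM here is an average over all cells of a culture, and fewer expressing cells cannot be told apart from less RNA per cell.

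The FPKM of all genes summed to between 607016 and 1234310 in Ku libraries and between 758681 and 1686570 in Cov libraries, with both 250 nM libraries lowest in each line. Depth is unknown, because the values are not counts. In each library 5278 (Ku) or 4901 (Cov) table rows share 1 value, the most frequent one, which lay between 0.0783 and 0.119 FPKM. Of 7 Müllerian and epithelial markers, 6 passed 1 FPKM in each line, with MUC16 at or below it in Ku cells and WT1 in Cov cells, and their summed level lay between 2260 and 4890 FPKM in Ku cells and between 1670 and 3770 FPKM in Cov cells. The leukocyte markers PTPRC and CD3E stayed at or below 1 FPKM in both lines, and CD68, a macrophage marker, passed it in both. Of 3 endothelial markers, 2 passed 1 FPKM in Ku cells (CDH5 and VWF) and 1 in Cov cells (CDH5), with sums between 6.74 and 11.8 FPKM in Ku cells and between 3.44 and 8.95 FPKM in Cov cells. Fibroblast markers summed to between 1.22 and 3.13 FPKM in Ku cells and between 21.3 and 47.7 FPKM in Cov cells, where DCN and PDGFRB stayed at or below 1 FPKM.

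The promoters of 5 members are shown because they differ in the elements through which immediate early genes are known to be switched on. The letters are from RefSeq, whose table (build GRCh38.p14) held promoters for 7 of the 10 members. IER3, ZFP36L2 and EGR3 had no entry. Each window was placed on GRCh37, the build of the deposited data (hg19), by an exact match that occurred once. Printed are the 150 bases before the start site, with capitals marking CArG boxes and TGACG, the core of the cyclic AMP response element, on either strand.
EGR1, chr5:137801018-137801167, plus strand: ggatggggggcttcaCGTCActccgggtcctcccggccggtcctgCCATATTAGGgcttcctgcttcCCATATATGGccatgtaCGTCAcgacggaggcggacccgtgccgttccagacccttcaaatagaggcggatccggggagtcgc
IER2, chr19:13261075-13261224, plus strand: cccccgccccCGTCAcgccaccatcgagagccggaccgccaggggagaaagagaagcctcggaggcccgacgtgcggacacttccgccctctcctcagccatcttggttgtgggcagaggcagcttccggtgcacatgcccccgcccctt
ZFP36, chr19:39897337-39897486, plus strand: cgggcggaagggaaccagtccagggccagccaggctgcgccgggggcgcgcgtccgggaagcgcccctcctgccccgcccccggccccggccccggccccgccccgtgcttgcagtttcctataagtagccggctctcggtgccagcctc
IER5, chr1:181057686-181057835, plus strand: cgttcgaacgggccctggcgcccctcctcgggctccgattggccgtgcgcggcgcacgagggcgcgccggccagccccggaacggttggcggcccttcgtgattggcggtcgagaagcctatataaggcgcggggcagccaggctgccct
DUSP1, chr5:172198199-172198348, minus strand: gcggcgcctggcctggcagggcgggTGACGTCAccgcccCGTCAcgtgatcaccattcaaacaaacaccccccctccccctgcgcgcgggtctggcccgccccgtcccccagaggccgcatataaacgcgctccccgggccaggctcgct
EGR1 held 2 CArG boxes within the 250 bases before its start site, beginning at positions -105 and -83 where -1 is the last base before the start. Over 35116 RefSeq promoter windows of 250 bases, 1.16% held a CArG box on either strand. TGACG was found in 21.2% of the windows. EGR1 held it at -135 and -66, IER2 at -140, and DUSP1 at 4 positions between -172 and -111, of which 2 overlap in a palindrome. Neither motif was found in the windows of ZFP36 or IER5. Among members whose promoters are not printed, EGR2 held a CArG box at -71 and TGACG at -110 and -54 in 1 of its windows. ZFP36L1 held TGACG at -147, -52 and -49 over its windows and no CArG box. TATAA, searched on the sense strand alone and present in 13.6% of windows, began at -30 in ZFP36 and DUSP1 and at -29 in IER5, and was not found in EGR1 or IER2. A match is a description of letters and says nothing about whether a factor was bound in these cells.

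All 10 genes are short and have few exons in the GENCODE annotation lifted to GRCh37. Gene lengths ran from 1350 bases in IER3 to 8594 bases in ZFP36L1, while the median over 12003 tested genes with a canonical coding transcript was 33390 bases, and 19% of those genes were under 10000 bases. IER5 has 1 exon, DUSP1 has 4 and the other 8 members have 2, against a median of 9. EGR1 spans chr5:137801168-137804992, IER2 chr19:13261225-13265725 and ZFP36 chr19:39897487-39900052, all on the plus strand. DUSP1 spans chr5:172195099-172198198 on the minus strand.

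The members differ in the AU-rich letters of their 3′ UTRs, the kind of site that ZFP36 proteins bind. TATTTAT, written here in DNA letters, occurred 4 times in IER3 and IER5, 3 times in ZFP36, ZFP36L1, ZFP36L2 and DUSP1, and 0 times in EGR1, EGR2, EGR3 and IER2. In IER5, 3 of the 4 copies overlap. Of the 12003 genes, 36.1% held at least 1 copy. Sites from 6 members are shown with the motif in capitals, each as 21 bases of the mRNA strand on GRCh37.
ZFP36, chr19:39899825-39899845, plus strand: ggcccttTATTTATgacgact
ZFP36, chr19:39899840-39899860, plus strand: acgacttTATTTATtctaata
IER3, chr6:30711434-30711454, minus strand: taattaaTATTTATatgtatt
IER3, chr6:30711424-30711444, minus strand: ttatatgTATTTATgtacgtc
ZFP36L1, chr14:69255057-69255077, minus strand: caaaacgTATTTATtgccaaa
ZFP36L2, chr2:43450543-43450563, minus strand: catactgTATTTATcaagtat
DUSP1, chr5:172195382-172195402, minus strand: tatacctTATTTATttttgtg
IER5, chr1:181061120-181061140, plus strand: aataatgTATTTATagaatta
EGR1 and IER2 stand apart from the other 6 tested members in these letters, with 1 and 0 copies of the shorter ATTTA, whereas IER5 held 10 copies and ZFP36L1 held 8. ATTTA occurred at least once in 73.2% of the 12003 genes.

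In DMSO, IER3 had the highest level of the members in both lines, with 112.9 ± 1.05 FPKM (SD, n = 2) in Ku cells and 164.2 ± 5.58 FPKM in Cov cells. FPKM is a value per length of transcript, so levels can be set against each other between genes. In Ku cells IER5 (58.6 ± 2.04 FPKM) and ZFP36L2 (52.6 ± 1.09 FPKM) followed. Below them lay DUSP1 (24.7 ± 0.982), ZFP36L1 (22.1 ± 0.153), EGR1 (22.0 ± 1.82), ZFP36 (18.0 ± 1.28) and IER2 (17.4 ± 0.571), of which ZFP36L1 and EGR1 overlapped, as did ZFP36 and IER2. In Cov cells the order was ZFP36L1 (119.8 ± 8.99), IER2 (77.4 ± 3.85), ZFP36L2 (76.1 ± 6.37), DUSP1 (31.9 ± 1.26), IER5 (30.0 ± 1.88), ZFP36 (10.7 ± 0.326) and EGR1 (7.18 ± 0.311), with IER2 and ZFP36L2 overlapping and DUSP1 and IER5 overlapping. EGR1, at the lower end in Cov cells, still exceeded 34.8% of the tested genes there and 65% in Ku cells.

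**Figure D1:**
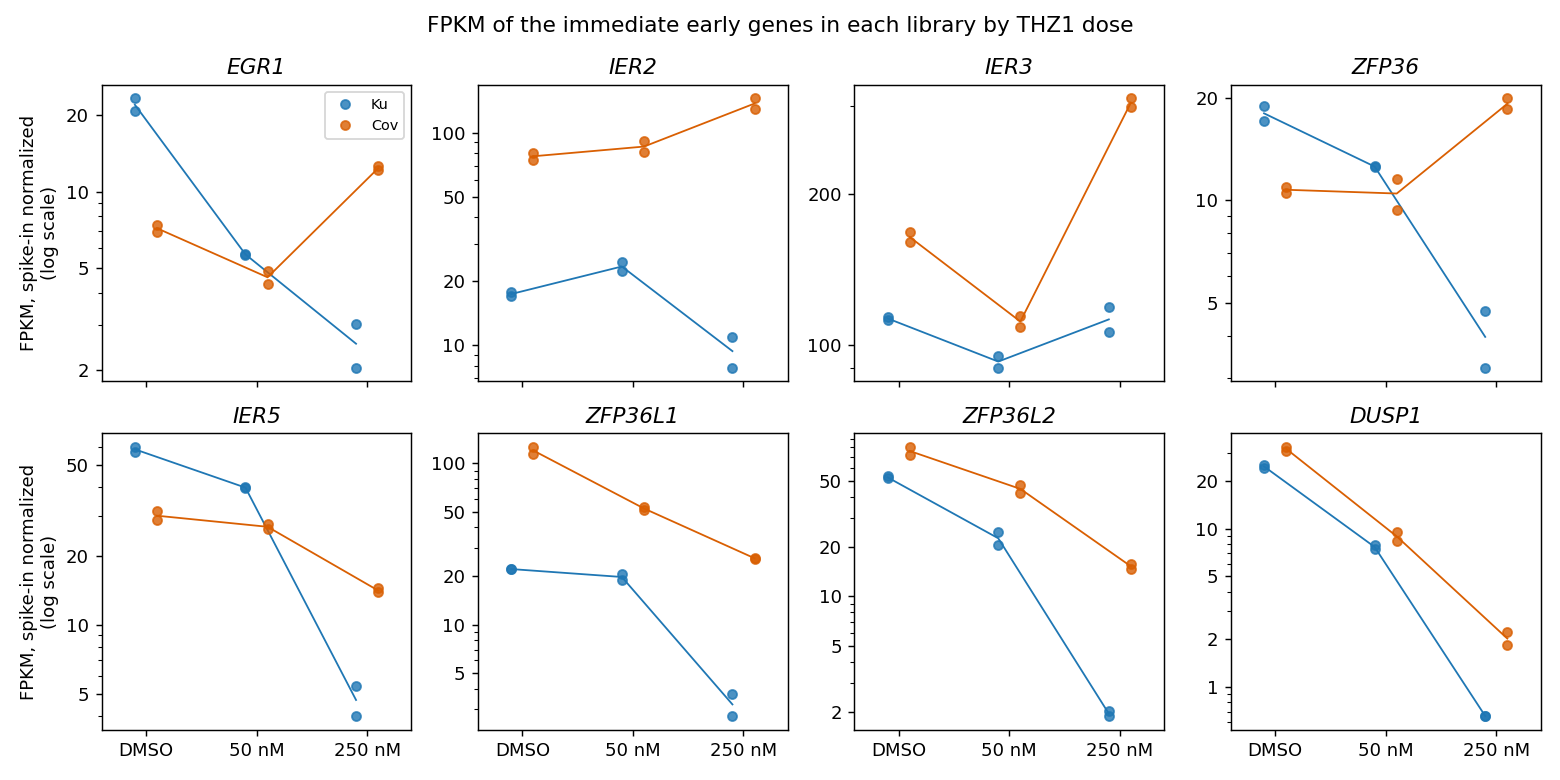
FPKM of the 8 members above 1 FPKM, 1 panel per gene on its own log axis, by THZ1 dose. Points are libraries (2 per condition), lines join the means, and blue is Ku and orange is Cov; EGR1, IER2, IER3 and ZFP36 at 250 nM lie above DMSO in Cov cells, while IER5, ZFP36L1, ZFP36L2 and DUSP1 lie below DMSO in both lines on the spike-in scale (under other scalings IER2 in Ku cells and IER5 in Cov cells change sides).

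At 250 nM the members split between the lines. In Ku cells 7 of the 8 tested members lay below DMSO with no overlap of libraries and IER3 overlapped it, while in Cov cells 4 lay below and 4 above. Over all tested genes, 95.9% (Ku) and 95.6% (Cov) lay below DMSO without overlap, and 0.414% (Ku) and 0.54% (Cov) lay above. Lying below DMSO in Ku cells and above it in Cov cells, both without overlap, was seen in 35 of 14251 genes (0.246%), and EGR1, IER2 and ZFP36 were chosen for belonging to them. Nothing is read from these counts, since the set was picked on this dose. IER3, which was not among the 3 genes that prompted the choice, lay above DMSO in Cov cells and overlapped it in Ku cells. Directions and dose steps of the members are given on the deposited spike-in scale. Under both other scalings, described further on, the 50 nM values of IER3, IER5 and ZFP36 in both lines, of ZFP36L1 in Ku cells and of EGR1 and ZFP36L2 in Cov cells turned above DMSO, as did ZFP36L1 in Cov cells with equal medians.

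EGR1, the founding member of the EGR transcription factors, had the widest split between the lines. Its level in Ku cells was 23.2 and 20.7 FPKM in DMSO, 5.69 and 5.65 at 50 nM, and 2.03 and 3.02 at 250 nM. In Cov cells it was 7.40 and 6.96 FPKM in DMSO, 4.89 and 4.32 at 50 nM, and 12.1 and 12.6 at 250 nM. Ku cells thus stepped down at each dose with no overlap, whereas in Cov cells both 50 nM libraries were the lowest and both 250 nM libraries the highest on the spike-in scale. Mean FPKM at 250 nM was 8.69-fold lower than DMSO in Ku cells and 1.72 times DMSO in Cov cells. At 50 nM EGR1 fell by 1.78 on the log2(FPKM + 1) scale in Ku cells (SE 0.166; limma, adjusted p = 0.00062 by the Benjamini-Hochberg method over all tested genes). In Cov cells the log2 fold change at 50 nM was -0.55 (SE 0.1), which missed the threshold of 0.001 (limma, adjusted p = 0.0014). With eBayes without trend this value passed it (limma, adjusted p = 0.000934).

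Neither EGR2 nor EGR3 reached 1 FPKM. EGR2, a relative of EGR1 known from Schwann cells and lymphocytes, lay between 0.0774 and 0.170 FPKM in Ku cells and between 0.117 and 0.236 FPKM in Cov cells, close to the most frequent value of the libraries. In Ku cells EGR3 was listed at 0.281 and 0.300 FPKM in DMSO, 0.388 and 0.339 at 50 nM and 0.443 and 0.771 at 250 nM. The Cov values were 0.156 and 0.122, 0.111 and 0.123, and 0.270 and 0.276 FPKM. Both lines had their highest EGR3 values at 250 nM, at a level too low to be fitted.

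IER2, a nuclear immediate early protein, was the one fitted member whose 50 nM libraries all lay above DMSO in both lines on the spike-in scale. In Ku cells it stood at 17.8 and 17.0 FPKM in DMSO, 22.4 and 24.6 at 50 nM, and 7.85 and 10.9 at 250 nM. In Cov cells it stood at 74.7 and 80.1 FPKM in DMSO, 91.2 and 80.7 at 50 nM, and 129.1 and 144.8 at 250 nM. The level in Ku cells was highest at 50 nM and lowest at 250 nM, and in Cov cells it was highest at 250 nM. The 50 nM difference did not pass the test in either line, with a log2 fold change of 0.41 (SE 0.154; limma, adjusted p = 0.0644) in Ku cells and 0.15 (SE 0.101; limma, adjusted p = 0.196) in Cov cells. Its 50 nM fold change nevertheless exceeded that of 98.6% of tested genes in Ku cells and 99.0% in Cov cells. At 250 nM the mean FPKM was 1.86-fold lower than DMSO in Ku cells, a direction that holds on the spike-in scale only, and 1.77 times DMSO in Cov cells.

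IER3, a stress-induced protein linked to cell survival, lay below DMSO at 50 nM and higher again at 250 nM in both lines on the spike-in scale. In Ku cells it had 113.6 and 112.1 FPKM in DMSO, 95.2 and 90.0 at 50 nM, and 106.1 and 118.8 at 250 nM, where it overlapped DMSO. In Cov cells it had 160.3 and 168.1 FPKM in DMSO, 114.3 and 108.3 at 50 nM, and 299.1 and 310.9 at 250 nM. All 250 nM libraries lay above all 50 nM libraries in each line, by 1.21 times in Ku cells and 2.74 times in Cov cells on mean FPKM. At 50 nM IER3 fell by 0.56 on the log2 scale in Cov cells (SE 0.079; limma, adjusted p = 0.000387). In Ku cells the log2 fold change was -0.28 (SE 0.0729; limma, adjusted p = 0.0188), short of the threshold.

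IER5, a regulator of the heat shock factor HSF1, lay below DMSO at 250 nM in both lines on the spike-in scale, though above it in Cov cells under both other scalings given further on. Its level in Ku cells was 60.0 and 57.1 FPKM in DMSO, 40.1 and 39.5 at 50 nM, and 3.99 and 5.41 at 250 nM. In Cov cells it was 28.7 and 31.3 FPKM in DMSO, 27.6 and 26.1 at 50 nM, and 13.9 and 14.4 at 250 nM. On the spike-in scale every step ran downward without overlap, and the 50 nM step turned upward on the other scalings. Mean FPKM at 250 nM was 12.5-fold lower than DMSO in Ku cells and 2.12-fold lower in Cov cells. At 50 nM neither line passed the test, with log2 fold changes of -0.54 (SE 0.127; limma, adjusted p = 0.0134) in Ku cells and -0.15 (SE 0.0878; limma, adjusted p = 0.131) in Cov cells.

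ZFP36, also called tristetraprolin, split between the lines while its relatives ZFP36L1 and ZFP36L2 did not. In Ku cells ZFP36 had 18.9 and 17.1 FPKM in DMSO, 12.5 and 12.6 at 50 nM, and 3.22 and 4.71 at 250 nM. In Cov cells ZFP36 had 10.5 and 11.0 FPKM in DMSO, 11.5 and 9.35 at 50 nM, and 18.4 and 19.9 at 250 nM. Ku levels stepped down at each dose, and Cov levels overlapped between DMSO and 50 nM and lay above both at 250 nM. Mean FPKM at 250 nM was 4.53-fold lower than DMSO in Ku cells and 1.79 times DMSO in Cov cells. At 50 nM the log2 fold change was -0.48 (SE 0.164; limma, adjusted p = 0.0462) in Ku cells and -0.041 (SE 0.116; limma, adjusted p = 0.751) in Cov cells, neither past the threshold.

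ZFP36L1, an AU-rich element binding protein, had 22.0 and 22.2 FPKM in DMSO, 20.6 and 18.8 at 50 nM, and 2.70 and 3.69 at 250 nM in the Ku libraries. In Cov cells ZFP36L1 had 113.4 and 126.2 FPKM in DMSO, 51.4 and 53.4 at 50 nM, and 25.9 and 25.6 at 250 nM. The 250 nM mean was 6.90-fold lower than DMSO in Ku cells and 4.65-fold lower in Cov cells. At 50 nM ZFP36L1 fell by 1.18 on the log2 scale in Cov cells (SE 0.0848; limma, adjusted p = 2.85e-05), and in Ku cells its log2 fold change was -0.16 (SE 0.138; limma, adjusted p = 0.368). The larger value at the low dose belonged to Cov cells and at the high dose to Ku cells, a difference between lines that was not tested.

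ZFP36L2, the other relative of ZFP36, had 53.4 and 51.9 FPKM in DMSO, 24.6 and 20.4 at 50 nM, and 2.01 and 1.88 at 250 nM in the Ku libraries. In Cov cells ZFP36L2 had 71.6 and 80.6 FPKM in DMSO, 42.4 and 47.2 at 50 nM, and 14.7 and 15.7 at 250 nM. Levels stepped down at each dose in both lines, to a 250 nM mean 27.1-fold below DMSO in Ku cells and 5.00-fold below it in Cov cells. At 50 nM ZFP36L2 fell by 1.20 on the log2 scale in Ku cells (SE 0.113; limma, adjusted p = 0.000644) and fell by 0.75 in Cov cells (SE 0.0987; limma, adjusted p = 0.000268).

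DUSP1, the phosphatase that turns off p38, JNK and ERK kinases, was the member furthest below DMSO at 250 nM on mean FPKM in each line. In Ku cells DUSP1 had 25.4 and 24.0 FPKM in DMSO, 7.40 and 7.92 at 50 nM, and 0.659 and 0.655 at 250 nM. In Cov cells DUSP1 had 31.0 and 32.8 FPKM in DMSO, 8.39 and 9.48 at 50 nM, and 1.83 and 2.21 at 250 nM. Levels stepped down at each dose in both lines, to 37.6-fold below DMSO in Ku cells and 15.8-fold below it in Cov cells. At 50 nM DUSP1 fell by 1.57 on the log2 scale in Ku cells (SE 0.115; limma, adjusted p = 0.000369) and fell by 1.73 in Cov cells (SE 0.111; limma, adjusted p = 2.28e-05).

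By the test at 50 nM, which shares its DMSO libraries with the contrast that chose the genes, 3 of 8 members were lower in Ku cells (EGR1, ZFP36L2 and DUSP1) against 11.3% of all tested genes. In Cov cells 4 of 8 were lower (IER3, ZFP36L1, ZFP36L2 and DUSP1) against 70.5% of all tested genes. The calls are those of limma at an adjusted p under 0.001 with a log2 fold change beyond 0.5. No member was higher, against 0.0842% and 0.0772% of genes. At an unadjusted p under 0.05, the Ku fit had 6 members lower and 1, IER2, higher, and the Cov fit had 5 lower and 0 higher. The share of all genes at this unadjusted cut was not counted, so nothing is read from these numbers. Without regard to p, 7 members had a log2 fold change below 0 in each line, as did 90.1% (Ku) and 98.1% (Cov) of all tested genes. The median log2 fold change of the 8 members was -0.51 (Ku) and -0.55 (Cov), beside -0.40 and -0.85 over all tested genes. Without regard to a test, both 50 nM libraries lay below both DMSO libraries for 7 members in Ku cells (75.8% of all genes) and for 6 in Cov cells (95.7%). Of the 8, IER2 alone lay above DMSO in each line on this scale (3.45% of all Ku genes and 0.674% of all Cov genes did). These medians hold on the spike-in scale: with equal medians they became 0.16 (Ku) and 0.56 (Cov) for the members beside 0.10 and 0.12 for all genes. With median-of-ratios scaling they were 0.021 and 0.39 beside 0.025 and 0.0020. Leaving out any 1 of the 6 Ku libraries ended all 3 Ku calls, as it did most Ku calls over all genes. Log2 fold changes then stayed between -1.86 and -1.70 (EGR1), -1.33 and -1.07 (ZFP36L2) and -1.61 and -1.53 (DUSP1). The Ku calls also ended without a minimum FPKM and in a fit of only the 2 groups compared, where few genes were called at all. With a replicate block EGR1 was no longer called in Ku cells. In Cov cells the count ranged from 2 to 4: IER3 was lost without either DMSO library or either 50 nM library, and ZFP36L2 without DMSO replicate 2 or 50 nM replicate 1.

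The full downward order, in which every DMSO library exceeds every 50 nM library and every 50 nM library exceeds every 250 nM library, held for 6 of 8 members in Ku cells (66.7% of all genes) and for 4 of 8 in Cov cells (73.8% of all genes). Between 50 nM and 250 nM, 7 members lay lower in Ku cells and IER3 lay higher, where 87.7% and 1.26% of all genes did so. In Cov cells IER5, ZFP36L1, ZFP36L2 and DUSP1 lay lower and EGR1, IER2, IER3 and ZFP36 lay higher, where 75.6% and 4.76% of all genes did so. These counts use the 250 nM libraries that chose the genes and are given as a description. They hold on the spike-in scale, since the 50 nM turns listed before the members' values break the order. With equal medians EGR1 in Ku cells no longer stepped down between the doses, at -1.10 at 50 nM and -1.03 at 250 nM.

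**Figure D2:**
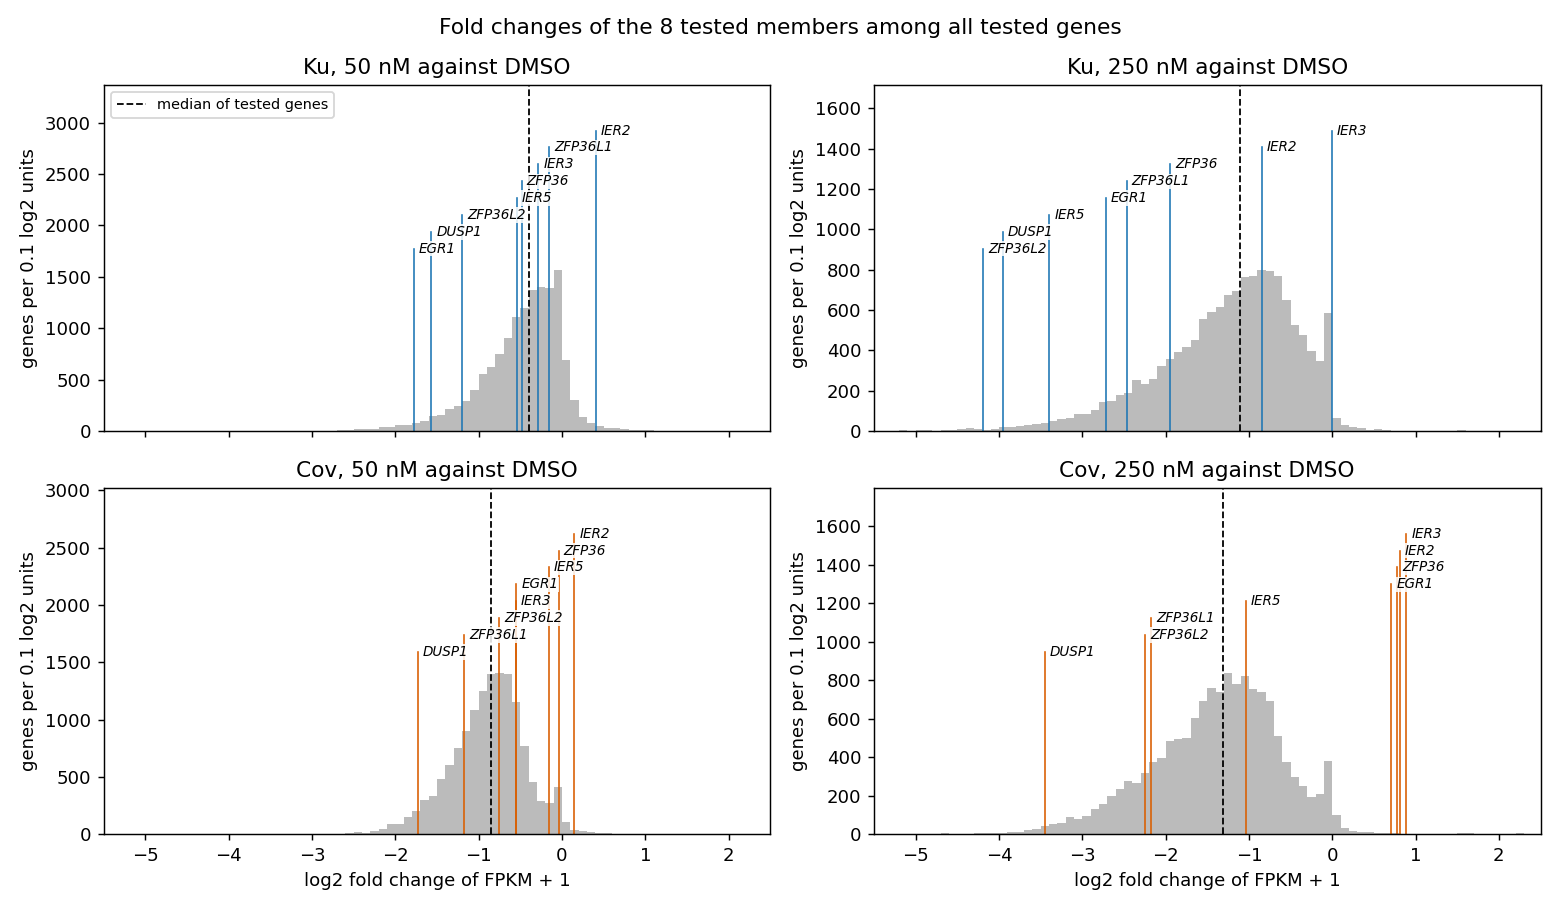
Log2 fold changes of FPKM + 1 against DMSO for all 14251 tested genes (grey histograms, genes per 0.1 log2 units) with the 8 members as coloured lines whose heights only separate the labels, for Ku (top) and Cov (bottom) at 50 nM (left) and 250 nM (right). The dashed line is the median of tested genes; in Cov cells at 250 nM EGR1, IER2, IER3 and ZFP36 lie at 0.71 to 0.89 while the median is -1.31.

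Set against the general fall, the 4 members above DMSO in Cov cells at 250 nM occupied the far end of the distribution. Their log2 fold changes were 0.71 (SE 0.1) for EGR1, 0.81 (SE 0.101) for IER2, 0.78 (SE 0.116) for ZFP36 and 0.89 (SE 0.079) for IER3, each above 99.6% of tested genes. EGR1, IER2 and ZFP36 were chosen for their directions at this dose, so their place follows largely from the choice and is only described. IER5 in Cov cells (-1.03, SE 0.0878) lay near the median of -1.31, and DUSP1 (-3.45, SE 0.111) lay below all but 1.06% of genes. In Ku cells at 250 nM the median of tested genes was -1.11, and ZFP36L2 (-4.19, SE 0.113), DUSP1 (-3.95, SE 0.115) and IER5 (-3.40, SE 0.127) were among the lowest 2% of genes. EGR1 (-2.71, SE 0.166), ZFP36L1 (-2.47, SE 0.138) and ZFP36 (-1.95, SE 0.164) lay below the median as well. IER2 (-0.84, SE 0.154) lay above it, and IER3 (-0.0075, SE 0.0729) lay above 98.5% of genes. The 8 members had a median of -2.59 (Ku) and -0.16 (Cov).

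Because the deposited scale follows the spike-ins, directions also depend on it. When every library of a line was instead set to the same median FPKM, the median log2 fold change of all genes at 250 nM moved from -1.11 to 0.29 in Ku cells and from -1.31 to 0.31 in Cov cells, and under median-of-ratios scaling it was -0.00088 and 0.011. EGR1 kept its opposite signs, at -1.03 in Ku cells and 2.54 in Cov cells with equal medians and at -1.48 and 2.14 with median-of-ratios scaling. ZFP36 kept them too, at -0.20 and 2.69 and at -0.67 and 2.27, though its -0.20 in Ku cells (SE 0.136) lay near 0. IER2 did not, since its value in Ku cells became 1.00 and 0.51 while that in Cov cells became 2.86 and 2.41. IER5 in Cov cells turned from -1.03 to 0.94 and 0.50, and IER3 in Ku cells went from -0.0075 to 1.96 and 1.44. DUSP1, ZFP36L1 and ZFP36L2 stayed below 0 in both lines under both scalings. At 50 nM no member was called under either scaling in either line. Few of all 14251 tested genes were called there either. Equal medians gave 105 lower and 16 higher (Ku) and 21 and 12 (Cov). Median-of-ratios scaling gave 387 and 74 (Ku) and 110 and 20 (Cov). The absence of member calls therefore says little about the members. Of the values called on the spike-in scale, those of IER3 and ZFP36L2 in Cov cells turned above 0 under both scalings. That of ZFP36L1 in Cov cells did so under equal medians. The calls above thus hold on the spike-in scale only.

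**Figure D3:**
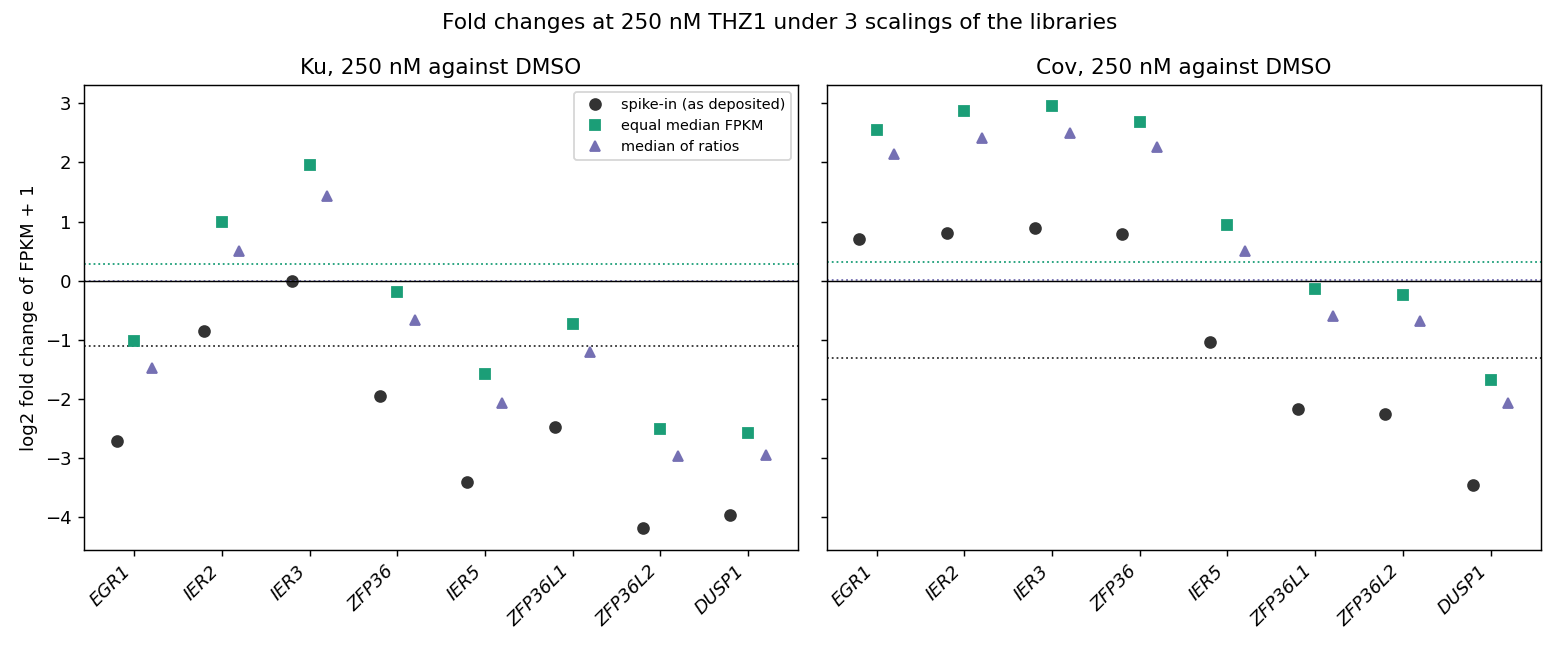
Log2 fold change of FPKM + 1 at 250 nM against DMSO for each member under the deposited spike-in scale (circles), equal median FPKM (squares) and median-of-ratios scaling (triangles), for Ku (left) and Cov (right); dotted lines are the medians of all tested genes. IER2 and IER3 in Ku cells and IER5 in Cov cells cross 0, while EGR1 and ZFP36 stay on opposite sides of 0 in the 2 lines. ZFP36 in Ku cells lies near 0 with equal medians (-0.20, SE 0.136).

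Genes whose course over the 12 libraries was most like that of EGR1, IER2 and ZFP36 were found from log2(FPKM + 1) centred within each line. The 12 points share 2 lines, 3 doses and the general fall with dose. IER2 was most like FOS (r = 0.949), JUNB (0.941), ICAM5 (0.904), FOSB (0.855) and BAIAP3 (0.821), of which FOS, JUNB and FOSB code for AP-1 subunits. EGR1 was most like DNHD1 (r = 0.959), ZNRD1-AS1 (0.953), FIGNL2 (0.925), TBC1D10C (0.918) and NPAS1 (0.917). ZFP36 was most like KANK1 (r = 0.901), WNT6 (0.898), ZIC2, TIE1 and RDH5 (0.895 each). These correlations do not weigh the size of a change, and the genes nearest to ZFP36 and EGR1 had smaller values in Cov cells than these members. At 250 nM in Cov cells the log2 fold changes of the 5 genes nearest to ZFP36 lay between -0.048 and 0.24, against 0.78 for ZFP36, while in Ku cells they lay between -3.01 and -0.76. Those of the 5 nearest to EGR1 lay between -0.050 and 0.16 in Cov cells, against 0.71 for EGR1. EGR1, IER2 and ZFP36 were chosen on 250 nM libraries that enter these correlations. Which genes are nearest, and the likeness among EGR1, IER2 and ZFP36 themselves, follow in part from that choice. The r values are on the spike-in scale alone, where IER2, FOS and JUNB lay below DMSO at 250 nM in Ku cells. Under both other scalings these genes lay above DMSO there, FOS at 0.90 with equal medians and 0.50 with median-of-ratios scaling. ZFP36 had r of 0.899 with EGR1 and 0.864 with IER2, while EGR1 had 0.581 with IER2, 0.641 with IER5 and 0.59 with ZFP36L2.

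For the 6 gene lists that follow, calls are on the spike-in scale unless another is named. At 50 nM limma called 0 genes of each list in each line under both other scalings, apart from 1 lower gene of the ERK list in Ku cells under both and in Cov cells with median-of-ratios scaling, and 1 lower ZFP36-bound mRNA in Ku cells with median-of-ratios scaling. At an unadjusted p under 0.05 each list then had between 1 and 8 genes lower and between 0 and 6 higher. Shares of all genes at this unadjusted cut were not counted, so nothing is read from these numbers. Calls over all 14251 genes at 50 nM were 105 (Ku) and 21 (Cov) lower with equal medians. With median-of-ratios scaling they were 387 and 110, so the near absence of list calls says little. At 250 nM equal medians gave 1654 lower and 3831 higher (Ku) and 1611 and 3764 (Cov). Median-of-ratios scaling gave 2709 and 1579 (Ku) and 2694 and 1222 (Cov). The calls of each list under these scalings stand beside these counts.

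The AP-1 and NR4A genes are the other classical immediate early genes, and 9 of 11 listed were fitted. In Ku cells JUNB, which codes for an AP-1 subunit, was at 20.9 and 18.4 FPKM in DMSO, 36.0 and 37.5 at 50 nM and 11.0 and 14.7 at 250 nM. The Cov values of JUNB were 76.2 and 82.1, 124.2 and 112.4, and 204.9 and 250.0 FPKM. Like IER2, JUNB was highest at 50 nM in Ku cells and at 250 nM in Cov cells. JUN went the other way in Cov cells, from 66.9 and 72.1 FPKM in DMSO to 24.3 and 26.3 at 250 nM, on the spike-in scale alone: its log2 fold change of -1.42 there turned to 0.61 with equal medians and 0.16 with median-of-ratios scaling. At 50 nM limma called 2 of the 9 lower in Ku cells (JUN and JUND) and 5 in Cov cells, against 11.3% and 70.5% of all tested genes. At 250 nM, where limma called 68.6% of all Ku genes and 84% of all Cov genes lower, 5 (Ku) and 6 (Cov) of the 9 were lower. JUNB was called higher in Cov cells, as were 0.105% of all genes there, and 0 of the 9 were in Ku cells, against 0.0491% of all genes. The list's median at 250 nM was -1.38 (Ku) and -1.41 (Cov), and it became -0.13 and 0.61 with equal medians and -0.47 and 0.16 with median-of-ratios scaling. Calls with equal medians came to 3 lower and 3 higher (Ku) and 2 lower and 4 higher (Cov). With median-of-ratios scaling they came to 4 and 0 (Ku) and 2 and 4 (Cov). Counts over all genes on these scales are given before the lists, and many genes were called higher there. JUNB in Cov cells stayed above DMSO on these scales, at 3.56 and 3.10, but in Ku cells it turned to 1.28 and 0.79.

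Among the relatives and corepressors of the members, 7 of 8 listed were fitted (IER5L, NAB1, NAB2, DUSP2, DUSP4, DUSP5 and DUSP6). In Ku cells IER5L, the closest relative of IER5, had 28.2 and 28.0 FPKM in DMSO and 3.41 and 4.75 at 250 nM. In Cov cells IER5L had 27.2 and 29.4 FPKM in DMSO and 24.5 and 32.1 at 250 nM, overlapping. Its log2 fold change in Cov cells at 250 nM was -0.012 on the spike-in scale, 1.98 with equal medians and 1.54 with median-of-ratios scaling. DUSP6, an ERK phosphatase, was called lower at 250 nM in both lines, at -3.81 (Ku) and -2.77 (Cov). Of the 7 genes, limma called 0 in Ku cells at 50 nM, where 5 were lower and 0 higher at an unadjusted p under 0.05, and 5 lower in Cov cells, against 11.3% (Ku) and 70.5% (Cov) of all genes. At 250 nM it called 7 (Ku) and 6 (Cov) lower, against 68.6% and 84% of all genes. With equal medians it called 5 (Ku) and 3 (Cov) lower and 2 higher in Cov cells, where IER5L and NAB1 lay above 0, and with median-of-ratios scaling 5 were lower in each line and 1 higher in Cov cells. The list's medians of -2.53 (Ku) and -2.64 (Cov) stayed below 0 at -1.42 and -0.86 with equal medians and at -1.67 and -1.29 with median-of-ratios scaling.

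Upstream of the members, all 11 listed genes of the ERK and serum response factor route were fitted. CREB1, the factor that binds the cyclic AMP response element, was at 9.43 and 8.21 FPKM in DMSO, 1.76 and 1.46 at 50 nM, and 0.568 and 0.664 at 250 nM in Ku cells. Its log2 fold change at 50 nM was -1.91 (SE 0.129; limma, adjusted p = 0.000332) in Ku cells and -1.93 (SE 0.0973; limma, adjusted p = 2.13e-05) in Cov cells. It was the 1 of 11 called lower in Ku cells at 50 nM, while 10 were in Cov cells, where 11.3% (Ku) and 70.5% (Cov) of all genes were lower. At 250 nM 10 (Ku) and 11 (Cov) were lower, against 68.6% and 84% of all genes. With equal medians 3 were lower and 3 higher in each line, and with median-of-ratios scaling 3 were lower in each line, 2 higher in Ku cells and 1 higher in Cov cells. The medians at that dose, -1.47 in Ku cells and -1.35 in Cov cells, turned to 0.40 and 0.65 with equal medians and to -0.098 and 0.20 with median-of-ratios scaling, whereas CREB1 stayed below 0 throughout, at -1.31 and -1.14 and at -1.66 and -1.47.

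Downstream, 8 of 8 listed EGR1 target genes were fitted. THBS1, the thrombospondin gene, went from 87.4 and 101.1 FPKM in DMSO to 10.8 and 11.9 FPKM at 250 nM in Cov cells, where EGR1 itself lay above DMSO. NAB2, an EGR corepressor that EGR1 induces, went from 21.9 and 22.2 FPKM to 1.19 and 1.48 FPKM in the same libraries. At 250 nM all 8 were called lower in both lines on the spike-in scale, where 68.6% (Ku) and 84% (Cov) of all genes were. In Cov cells TGFB1, which codes for a growth factor, lay above DMSO under both other scalings and was called higher with equal medians, while the other 7 stayed below. In Ku cells TGFB1, ICAM1 and THBS1 lay above DMSO with equal medians. The number called lower became 1 (Ku) and 6 (Cov) with equal medians and 3 (Ku) and 7 (Cov) with median-of-ratios scaling. At 50 nM 1 (Ku) and 7 (Cov) were lower, against 11.3% and 70.5% of all genes. Medians at 250 nM were -1.96 (Ku) and -2.86 (Cov), and they stayed below 0 at -0.24 and -1.14 with equal medians and at -0.70 and -1.46 with median-of-ratios scaling.

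Of 14 listed mRNAs that ZFP36 is known to bind and that are not members, 13 were fitted. TNF, a cytokine and long-known target of ZFP36, was at 2.69 and 2.09 FPKM in DMSO, 3.85 and 5.56 at 50 nM and 15.8 and 15.0 at 250 nM in Cov cells. In Ku cells TNF was at 10.6 and 8.72, 14.7 and 17.1, and 10.7 and 13.8 FPKM, with no call at either dose. At 250 nM TNF thus lay above DMSO in both lines, by a narrow margin in Ku cells, whereas ZFP36 did so in Cov cells only. At 250 nM in Cov cells 9 of the 13 were called lower, and TNF and the chemokine genes CXCL2 and CXCL3 were called higher, against shares over all genes of 84% and 0.105%. The Ku fit called 6 of the 13 lower at 250 nM, against 68.6% of all genes. Calls with equal medians came to 1 lower and 4 higher (Ku) and 1 lower and 5 higher (Cov), and with median-of-ratios scaling to 1 and 3 (Ku) and 3 and 4 (Cov). At 50 nM 3 (Ku) and 10 (Cov) were lower, against 11.3% and 70.5%. Medians at 250 nM of -0.95 (Ku) and -1.60 (Cov) turned to 0.56 and 0.20 with equal medians and to 0.14 and -0.25 with median-of-ratios scaling. TNF, CXCL2 and CXCL3 stayed above 0 in Cov cells. In Ku cells their log2 fold changes at 250 nM were 0.31, -1.02 and 0.22 on the spike-in scale. These became 2.12, 0.56 and 1.68 with equal medians and 1.64, 0.14 and 1.29 with median-of-ratios scaling.

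The CCR4-NOT deadenylase, through which ZFP36 proteins act, was represented by 10 fitted subunits. CNOT8 went from 53.7 and 47.4 FPKM in DMSO to 9.55 and 8.81 FPKM at 250 nM in Ku cells and from 54.4 and 63.0 to 7.29 and 6.29 FPKM in Cov cells. All 10 were called lower in both lines at 250 nM, against 68.6% (Ku) and 84% (Cov) of all genes. With equal medians 1 (Ku) and 4 (Cov) were lower at that dose, and with median-of-ratios scaling 6 and 7. At 50 nM 2 (Ku) and 10 (Cov) were lower, against 11.3% and 70.5%. The 250 nM medians, -1.98 in Ku cells and -2.22 in Cov cells, stayed below 0 at -0.23 and -0.30 with equal medians and at -0.65 and -0.74 with median-of-ratios scaling.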

How the data were processed

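RNA-seq of 12 libraries was used, 2 per line and dose. Reads were aligned by the authors with HISAT on hg19, and FPKM came from Cufflinks and Cuffnorm and were normalized to ERCC spike-ins. They deposited 1 FPKM table per line, with 23713 rows of which 92 are ERCC RNAs. Counts, depth and the paper's edgeR test were not used here. Samples were grouped by the line and dose in their labels.

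Values were analysed as log2(FPKM + 1), and a fold change on this scale understates that of low genes. The 2 lines were fitted separately, by limma 3.58.1 under R 4.3.3 (3 groups, eBayes with a mean-variance trend) over 14251 genes with an FPKM above 1 in at least 1 library. P-values are two-sided, adjusted by the Benjamini-Hochberg method. The study's thresholds, an adjusted p below 0.001 with an absolute log2 fold change over 0.5, defined a call. With 2 libraries against 2, an exact permutation test cannot go below p = 0.33. Libraries were "above" or "below" where both of one group exceeded both of the other.

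The members, gene lists and tests were chosen with earlier results of these data known. All 10 members are named, and up to 4 genes per list: the 2 highest in mean FPKM and the lowest and highest fold change at 250 nM in Ku cells. Genes outside this (JUND, SRF, CXCL2, CXCL3, and those a count names) were chosen after their values were seen. The 5 genes with the highest Pearson r are named for EGR1, IER2 and ZFP36. RefSeq promoters and the GENCODE v44 annotation lifted to GRCh37 gave sequences, and figures were made in Python 3.11.15 (matplotlib 3.10.9). Alternatives were a pseudocount of 0.1, a minimum of 10 FPKM or none, 2 other scalings, eBayes without trend, a replicate block, only the 2 groups compared, an adjusted p under 0.05, and each library left out. A leukocyte marker and the summed level of its list are not reported here.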

Additional observations from a re-analysis of the deposited data

Results flagged for a closer look

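The members EGR1, IER2 and ZFP36 lay on opposite sides of DMSO in the 2 lines at 250 nM in every library, the pattern they were picked for. The log2 fold change in Cov cells minus that in Ku cells was 3.42 for EGR1, 1.66 for IER2 and 2.73 for ZFP36. The difference between the lines was not tested, because the genes were picked on it. IER2 was above DMSO in Ku cells under both other scalings of the libraries, so its opposite sides rest on the spike-in scale. Groups of 2 libraries were too small to test a single library as an outlier.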

How the results depend on the processing

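Other scalings turned the direction of the member values given next, and the cause was not tested. With every library of a line at an equal median FPKM, log2 fold changes at 50 nM became 0.41 (IER3), 0.15 (IER5), 0.17 (ZFP36) and 0.51 (ZFP36L1) in Ku cells, and 0.47 (EGR1), 0.66 (IER3), 1.01 (IER5), 1.04 (ZFP36), 0.033 (ZFP36L1) and 0.45 (ZFP36L2) in Cov cells. At 250 nM IER2 became 1.00 and IER3 became 1.96 in Ku cells and IER5 became 0.94 in Cov cells. Medians of the members became 0.16 and 0.56 at 50 nM and -0.88 and 1.74 at 250 nM in Ku and Cov cells, 0 members were called lower at 50 nM in either line, and genes called lower numbered 105 (Ku, 50 nM), 1654 (Ku, 250 nM), 21 (Cov, 50 nM) and 1611 (Cov, 250 nM), with 3831 and 3764 called higher at 250 nM. With median-of-ratios scaling the values at 50 nM were 0.27 (IER3), 0.0030 (IER5), 0.039 (ZFP36) and 0.37 (ZFP36L1) in Ku cells, and 0.32 (EGR1), 0.47 (IER3), 0.83 (IER5), 0.88 (ZFP36) and 0.26 (ZFP36L2) in Cov cells, and at 250 nM 0.51 (IER2, Ku), 1.44 (IER3, Ku) and 0.50 (IER5, Cov). Medians were 0.021, 0.39, -1.34 and 1.32, with 0 members called lower at 50 nM, 387, 2709, 110 and 2694 genes lower in the order above, and 74, 1579, 20 and 1222 higher.

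In Ku cells at 50 nM, calls without a minimum FPKM came to 3 lower and 0 higher, and to 9 and 1 in a fit of only the 2 groups compared, with 0 members lower in both. That fit called 23 genes higher in Cov cells at 250 nM, a minimum of 10 FPKM called 6 higher in Cov cells at 50 nM, and eBayes without trend called 7 higher in Ku cells at 50 nM. Without trend, 5 members were called lower in Cov cells at 50 nM, EGR1 among them. At an adjusted p under 0.05, 5734 genes were called lower and 88 called higher at 50 nM in Ku cells, and 19, 32 and 26 were higher in Ku cells at 250 nM and Cov cells at 50 nM and 250 nM. A pseudocount of 0.1 gave the members a median of -2.93 at 250 nM in Ku cells. With each library left out, genes called lower ranged from 6 to 131, 6085 to 9044, 4314 to 9929 and 10451 to 12341, and higher from 1 to 21, 5 to 23, 7 to 30 and 11 to 29 (Ku at 50 and 250 nM, Cov at 50 and 250 nM). Members called lower at 50 nM ranged from 0 to 0 in Ku cells and from 2 to 4 in Cov cells, their medians from -0.57 to -0.46, -2.78 to -2.40, -0.61 to -0.50 and -0.19 to -0.14, and ZFP36 at 50 nM in Cov cells ranged from -0.18 to 0.097, the latter without 50 nM replicate 2.

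Replicate numbers did not pair the samples: deviations of same-numbered libraries correlated between -0.0703 and 0.0282. With the replicate block 989 genes were lower in Ku cells at 50 nM, where EGR1 was no longer called (adjusted p = 0.00136, limma), nor was IER3 in Cov cells (adjusted p = 0.00156, limma), leaving 2 and 3 members. Depth is unknown, and with 2 libraries per group the calls rest on the spread that limma pools across genes. EGR2, EGR3 and DUSP1 in Ku cells at 250 nM lay under 1 FPKM, where the pseudocount shrinks a fold change.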
